A study of Mus musculus with 6 samples.

Results

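The 46 genes described here encode proteins that copy DNA or that cells switch on to do so: the MCM helicase, the factors that load it at origins, the polymerases and the sliding clamp, the enzymes that make deoxynucleotides, and the E2F and cyclin E proteins that start S phase. They were chosen by name. All 46 were found by symbol among the 46603 genes of the count table, and all 46 passed the filter on low counts, which left 15440 genes. The counts come from CD11B+ cells, taken with magnetic beads from kidneys of 10- to 12-week-old males. Both renal pedicles had been clamped for 28 minutes (bilateral IRI-AKI), and cells were isolated on day 3, with 1 library per mouse. All 6 mice carried Rosa26-LSL-RARaT403X, a truncated dominant negative RARα that is expressed after Cre has acted, and the study bred the allele to homozygosity. PEPCK-Cre was present in 3 PTEC DN RAR mice (genotype PEPCK CRE+) and absent in 3 Cre– controls (PEPCK CRE-). PEPCK-Cre acts in proximal tubular epithelial cells (PTECs), a cell type other than the one selected by the beads, and the bead fraction holds several cell types. No uninjured mice are among the 6 samples.

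In dividing cells the MCM ring is loaded onto origins in G1 and becomes an active helicase when CDC45 and GINS join it. Polymerases then extend primers behind it, and the clamp PCNA holds them on the template. Most of these genes are transcribed shortly before and during S phase under E2F factors, so their transcripts are low in resting cells. Kidney macrophages can renew themselves by division, and monocytes that enter the injured kidney come from dividing cells of the marrow. The comparison asks whether the genes for DNA synthesis were expressed at a different level in the CD11B+ fraction when RAR signaling was inhibited in PTECs.

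Counts summed over genes came to between 29318041 and 40741507 in Cre– controls and between 42113139 and 46517005 in PTEC DN RAR mice, so that a member had from 37 to 6632 reads in a library. Levels are given as CPM, the read count scaled for depth and by TMM. Itgam, which encodes CD11B, was abundant in every library, at 1740, 1960 and 1990 CPM in Cre– controls and 1370, 1300 and 980 CPM in PTEC DN RAR mice (log2 fold change -0.64 ± 0.14, adjusted p = 0.00818 from edgeR). Fold changes are given ± their standard error, and p values are adjusted over all 15440 genes. Rara, the receptor gene behind the dominant negative form, had 45.4, 35.3 and 45.1 CPM in Cre– controls and 30.7, 31.5 and 37.6 CPM in PTEC DN RAR mice (adjusted p = 0.0628 by edgeR), and the transgene has no entry of its own, so this does not check the genotype. No pair of libraries within a genotype was a repeat of the same library, with a chi-square per degree of freedom of at least 27.1 against counting error alone. Cre– control 1 lay below both other controls in 43 of the 46 members.

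The replication genes were lower in CD11B+ cells of PTEC DN RAR mice, with falls in each group of roles. All 46 had negative log2 fold changes, 41 fell past the threshold (adjusted p below 0.05, quasi-likelihood test of edgeR) and 0 rose (0 also at an unadjusted p under 0.05, and 0 by DESeq2 or limma voom). Of all genes tested 17.1% fell and 23.6% rose, 40.6% in either direction. The median log2 fold change was -0.73 over the members and 0.04 over all genes. With libraries scaled on pan-leukocyte genes 25 of the 46 fell and 0 rose, beside 4.74% and 31.9% of all genes. Summed proximal tubule markers were 675 to 847 CPM in Cre– controls and 2190 to 3350 CPM in PTEC DN RAR mice, and summed monocyte markers 3810 to 4110 and 1610 to 1670 CPM, and their part in the result was not tested. In bulk samples fewer cycling cells and less RNA per cell cannot be told apart. By flow cytometry the study reported more kidney-resident macrophages labeled with EdU, an S phase marker, in PTEC DN RAR mice after AKI. The bulk counts do not separate that subset. In 36 of the 46 genes every PTEC DN RAR library lay below every Cre– control library, and 24.2% of all genes tested lay apart in this direction and 53.4% in either. Falls of at least 2-fold were found in 7 genes (Mcm10, Orc1, Cdc6, Pole2, Exo1, Ccne1 and Ccne2). The 5 genes that did not pass were Gins3, Pold1, Rfc4, Rpa2 and E2f2. Of the 41, 30 passed whichever mouse was left out, and the other 11 (Orc1, Pola2, Prim1, Pole, Rfc2, Exo1, Rrm2, Tyms, Tk1, Uhrf1 and Brca1) lost their call without at least 1 of controls 2 and 3 and PTEC DN RAR 2 and 3. Their adjusted p values by edgeR were then between 0.0504 and 0.0983. On GRCm38, Ccne2 lies at chr4:11191351-11204779, Ccne1 at chr7:38097984-38107534, Orc1 at chr4:108579423-108614833, Cdc6 at chr11:98907801-98923940, Mcm10 at chr2:4989714-5012791, Pole2 at chr12:69201773-69228195 and Exo1 at chr1:175880581-175913489.

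**Figure D1:**
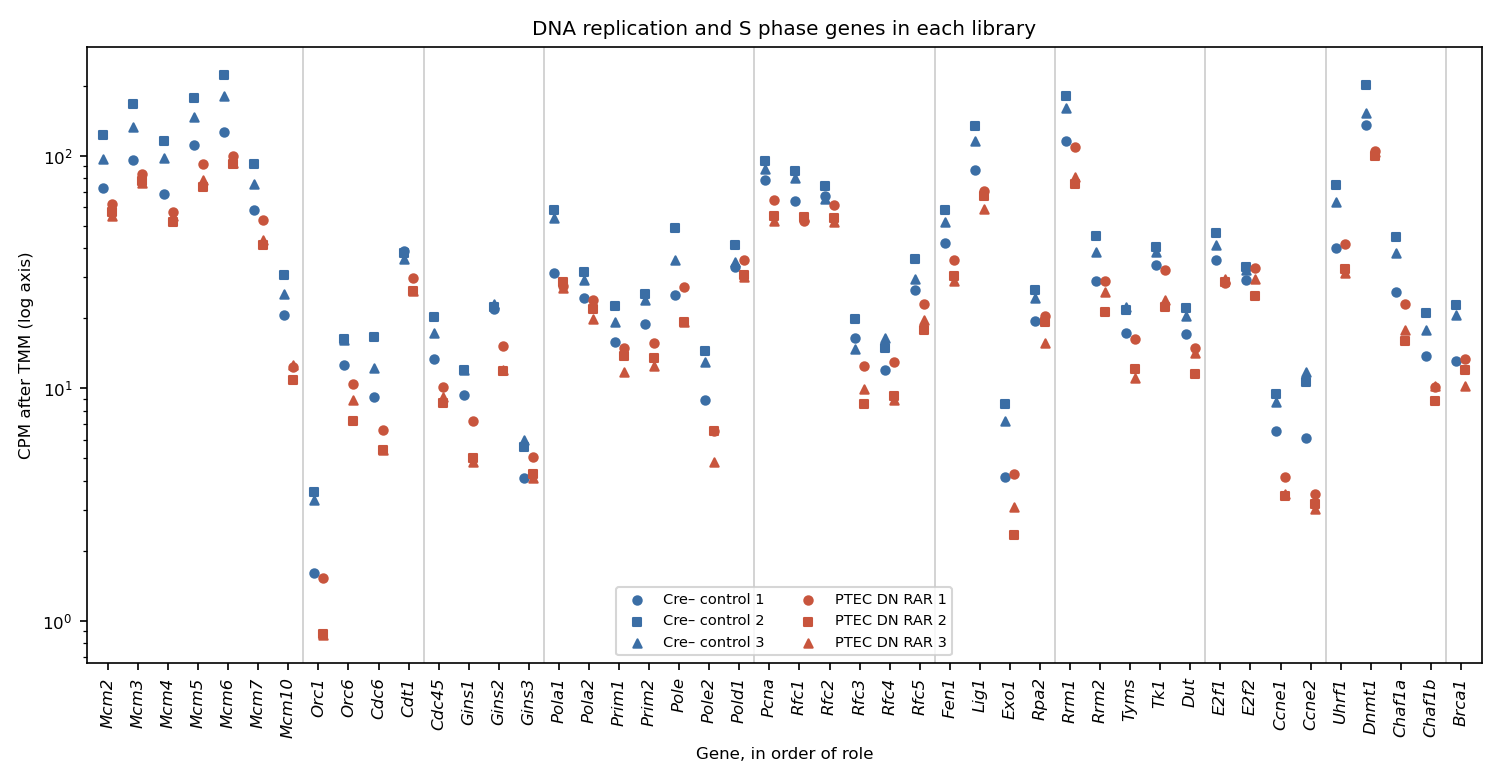
CPM after TMM (log axis) of each of the 46 genes in each of the 6 libraries, in order of role, with Cre– controls in blue and PTEC DN RAR mice in red and the marker shape giving the replicate number. The PTEC DN RAR points lie below all Cre– control points in 36 genes, and Cre– control 1 (blue circle) is the lowest control in 43.

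**Figure D2:**
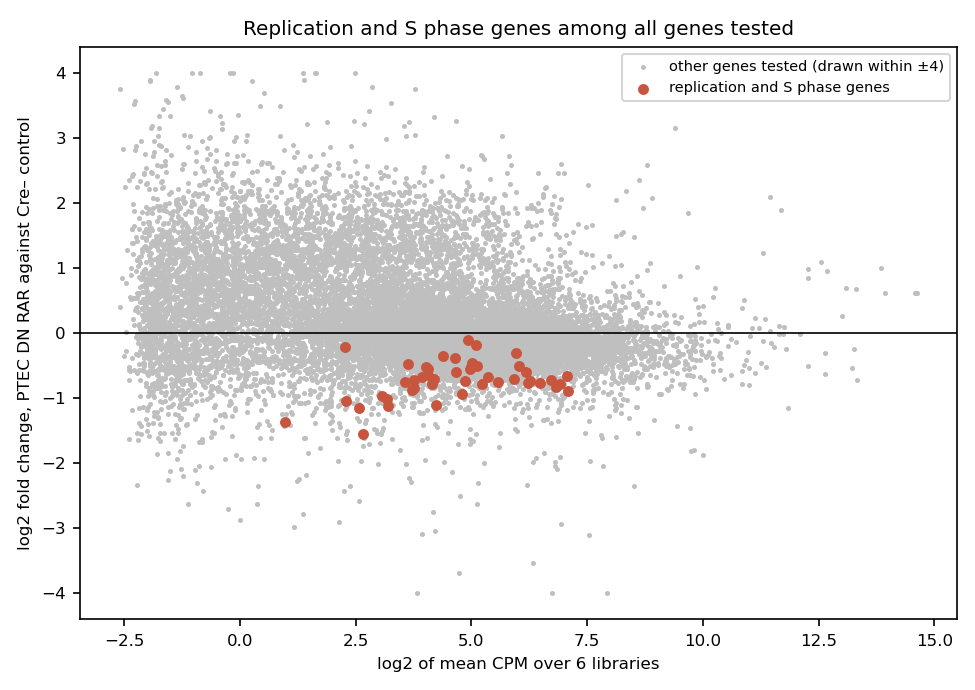
Log2 fold change against the log2 of mean CPM for all 15440 genes tested (grey, drawn within ±4) and the 46 members (red). The members run from -1.55 to -0.11 on the vertical axis, all below 0, and Orc1 lies furthest to the left.

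One control library stood apart from the others on these genes. Cre– control 1 was the lowest control in 43 of 46 genes and control 2 the highest in 40, and the ratio of control 2 to control 1 had a median of 1.46 and ranged from 0.974 to 2.21. PTEC DN RAR 1 was the highest of its genotype in 41 genes. The median ratio of control 1 to PTEC DN RAR 1 was 1.16, while that of control 2 to PTEC DN RAR 1 was 1.66. Every PTEC DN RAR library was below control 2 in all 46 genes, below control 3 in 44 and below control 1 in 36. Leaving out control 1 left 43 members that fell by edgeR, where 18.2% of all genes fell and 24.0% rose, and a median log2 fold change of -0.87. Averaged over the members, log2 CPM was 4.65, 5.2 and 5.02 in Cre– controls (mean 4.96, SD 0.28, n = 3) and 4.44, 4.15 and 4.17 in PTEC DN RAR mice (mean 4.25, SD 0.16, n = 3). The difference of -0.70 was larger than either SD.

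The helicase genes moved as a block. Mcm6, a subunit of the ring, measured 126, 222 and 180 CPM in Cre– controls and 99.3, 92.2 and 92.9 CPM in PTEC DN RAR mice, a log2 fold change of -0.89 ± 0.18 (adjusted p = 0.00523 by edgeR). Mcm5, another ring subunit, measured 111, 176 and 147 CPM against 92.3, 73.2 and 78.8 CPM. Neither gene overlapped between genotypes, but the controls were spread far more widely than the PTEC DN RAR mice. The other ring subunits Mcm2, Mcm3, Mcm4 and Mcm7 had log2 fold changes between -0.77 and -0.71, all with adjusted p values under 0.05 by edgeR and without overlap. Mcm10, which is not part of the ring and helps to activate it, fell furthest of the 7, from 20.7, 30.7 and 25.4 CPM to 12.3, 10.8 and 12.6 CPM (log2 fold change -1.10 ± 0.16, adjusted p = 0.00117, the lowest of the 46). Per kilobase of annotated exon the ring subunits were not equally abundant. Cre– control means were 37.7 for Mcm6, 36.3 for Mcm5, 35.2 for Mcm3, 26.1 for Mcm4, 17.0 for Mcm7 and 13.9 CPM per kilobase for Mcm2, and PTEC DN RAR means were 20.3, 20.4, 21.1, 15.3, 10.3 and 8.35 CPM per kilobase. Mcm6, Mcm5 and Mcm3 lay closer to each other than the spread between mice. The annotated exons of Mcm2 span 6956 bases, the most of the 6 ring subunits.

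Genes for origin licensing, the loading of the helicase in G1, fell in 4 of 4 cases, beside 17.1% of all genes tested. With pan-leukocyte scaling 3 of the 4 fell, beside 4.74% of all genes. Orc1, the subunit of the origin recognition complex that is made anew in each cycle, had 1.61, 3.56 and 3.29 CPM in Cre– controls and 1.53, 0.872 and 0.869 CPM in PTEC DN RAR mice. The highest PTEC DN RAR value was just under the lowest control, and the log2 fold change was -1.37 ± 0.37 (adjusted p = 0.0181 by edgeR). Cdc6, which brings the helicase to the origin, had 9.12, 16.5 and 12.2 CPM against 6.57, 5.44 and 5.43 CPM (log2 fold change -1.12, adjusted p = 0.0046 by edgeR). Cdt1, its partner in loading, fell less but with little spread, from 39.0, 38.0 and 36.0 CPM to 29.7, 26.1 and 26.2 CPM (log2 fold change -0.46 ± 0.09, adjusted p = 0.00527 by edgeR). Orc6 had a log2 fold change of -0.76, and none of the 4 genes overlapped between genotypes.

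CDC45 and the GINS complex turn the loaded ring into a moving helicase. Cdc45 fell from 13.4, 20.2 and 17.2 CPM to 10.1, 8.65 and 9.18 CPM (log2 fold change -0.87 ± 0.16, adjusted p = 0.00405 by edgeR). Gins1 measured 9.33, 12.0 and 11.9 CPM in Cre– controls and 7.19, 5.02 and 4.79 CPM in PTEC DN RAR mice, a log2 fold change of -0.97. Gins3, a subunit of the same complex, did not pass: its values of 4.12, 5.60 and 5.96 CPM and of 5.04, 4.29 and 4.09 CPM overlapped (log2 fold change -0.22 ± 0.19, adjusted p = 0.381 by edgeR). Gins2 had nearly equal controls at 21.9, 22.4 and 22.9 CPM against 15.2, 11.8 and 12.0 CPM (log2 fold change -0.79), but 67.3% of its annotated exon bases are shared with Gse1 on the other strand. Whether the counting used strand is not given in the sources used here, so the level of Gins2 is uncertain, as is that of Chaf1a, which shares 52.5% with Ubxn6. The other 11 members that share exon bases with a tested gene share less than 20% each.

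Among polymerases and primase, 6 of 7 genes fell, beside 17.1% of all genes tested. With pan-leukocyte scaling 2 of the 7 fell (Prim2 and Pole2), beside 4.74% of all genes. Pola1, the catalytic subunit of polymerase alpha, which starts each new strand, went from 31.2, 58.3 and 53.8 CPM to 27.6, 28.7 and 26.9 CPM (log2 fold change -0.78 ± 0.20, adjusted p = 0.0156 by edgeR). Here controls 2 and 3 were far above all PTEC DN RAR mice and control 1 only slightly. Pole2, an accessory subunit of the leading strand polymerase epsilon, fell from 8.92, 14.4 and 12.9 CPM to 6.55, 6.53 and 4.81 CPM (log2 fold change -1.01, adjusted p = 0.00585 by edgeR). Pole, its catalytic subunit, had 25.2, 48.8 and 35.4 CPM against 27.1, 19.2 and 19.3 CPM, and passed (adjusted p = 0.034 by edgeR) although PTEC DN RAR 1 lay above control 1. The primase genes Prim1 and Prim2, which lay down the RNA primers, had log2 fold changes of -0.52 and -0.71 and did not overlap, and Pola2 had -0.38. Pold1, the catalytic subunit of polymerase delta, which also serves DNA repair, was the exception at 33.0, 41.3 and 34.8 CPM against 35.7, 30.6 and 29.9 CPM (log2 fold change -0.18 ± 0.12, adjusted p = 0.24 by edgeR).

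Of the sliding clamp and its loader, 5 of 6 genes fell, beside 17.1% of all genes tested, with a median log2 fold change of -0.55. With pan-leukocyte scaling 2 of the 6 fell (Pcna and Rfc3), beside 4.74% of all genes, with a median of -0.34. Pcna, the clamp itself and a common marker of S phase, measured 78.5, 94.8 and 87.9 CPM in Cre– controls and 64.7, 54.8 and 52.3 CPM in PTEC DN RAR mice, without overlap (log2 fold change -0.60 ± 0.11, adjusted p = 0.00355 by edgeR). Reads that align to more than 1 place were not counted, and the table lists the Pcna copies Pcna-ps1 and Pcna-ps2, so its counts may be too low in all libraries. Of the 5 subunits of replication factor C, which opens the clamp, Rfc3 fell most (log2 fold change -0.72) and Rfc2 least (-0.30 ± 0.10, adjusted p = 0.0353 by edgeR). Rfc4 did not pass, at 11.9, 14.9 and 16.4 CPM against 13, 9.24 and 8.90 CPM (log2 fold change -0.47, adjusted p = 0.0742 by edgeR). Rfc1 and Rfc5 had log2 fold changes of -0.51 and -0.60.

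Enzymes that finish the new strands fell too. Lig1, the ligase that seals Okazaki fragments, went from 86.6, 134 and 116 CPM to 70.7, 67.3 and 59.0 CPM, and Fen1, the nuclease that trims them, from 41.9, 58.3 and 51.7 CPM to 35.5, 30.2 and 28.9 CPM. Their log2 fold changes of -0.77 and -0.68 had standard errors of 0.15 and 0.14 (adjusted p = 0.00506 by edgeR for each), and neither overlapped. Exo1, an exonuclease of mismatch repair, had 4.15, 8.52 and 7.25 CPM against 4.25, 2.33 and 3.07 CPM, so that control 1 lay below PTEC DN RAR 1 (log2 fold change -1.04 ± 0.31, adjusted p = 0.0258 by edgeR). Rpa2, a subunit of the protein that coats single strands, did not pass, at 19.4, 26.4 and 24.4 CPM against 20.4, 19.2 and 15.6 CPM (log2 fold change -0.35, adjusted p = 0.0943 by edgeR). Brca1, which acts in repair of broken DNA and at stalled forks, had a log2 fold change of -0.67 and overlapped between control 1, at 13.1 CPM, and PTEC DN RAR 1, at 13.4 CPM (adjusted p = 0.031 by edgeR).

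All 5 genes of nucleotide supply fell, beside 17.1% of all genes tested. With pan-leukocyte scaling 1 of the 5, Rrm1, fell, beside 4.74% of all genes. Rrm1, the large subunit of ribonucleotide reductase, which makes deoxynucleotides, was measured at 116, 181 and 160 CPM in Cre– controls and 109, 75.2 and 81.0 CPM in PTEC DN RAR mice (log2 fold change -0.79 ± 0.19, adjusted p = 0.0106 by edgeR). Rrm2, its small subunit, which is restricted to S phase, had 28.9, 45.0 and 38.5 CPM against 29.0, 21.2 and 26.0 CPM, with PTEC DN RAR 1 level with control 1 (log2 fold change -0.56, adjusted p = 0.0317 by edgeR). The thymidylate enzymes Tyms and Tk1 and the dUTPase Dut had log2 fold changes from -0.64 to -0.52, and none of these 3 overlapped.

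The regulators of entry into S phase spanned the range of the whole list, from its lowest log2 fold change to its highest. Ccne2, one of the E cyclins that drive cells from G1 into S phase, had 6.07, 10.6 and 11.7 CPM in Cre– controls and 3.51, 3.18 and 3.01 CPM in PTEC DN RAR mice (log2 fold change -1.55 ± 0.25, adjusted p = 0.00201 by edgeR). Ccne1 had 6.56, 9.39 and 8.68 CPM against 4.16, 3.44 and 3.52 CPM (log2 fold change -1.15 ± 0.18, adjusted p = 0.00206 by edgeR). In both genes every control was above every PTEC DN RAR mouse by a wide margin, and the PTEC DN RAR mice were close together. E2f1, an activator of the replication genes, fell less, from 35.5, 46.5 and 41.3 CPM to 28.4, 28.5 and 29.5 CPM (log2 fold change -0.51 ± 0.11, adjusted p = 0.00681 by edgeR). E2f2, a second activator, differed by less than the spread between mice, at 29.2, 33.1 and 32.1 CPM against 32.7, 25.0 and 29.4 CPM (log2 fold change -0.11 ± 0.12, adjusted p = 0.462 by edgeR). The difference between Ccne2 and E2f2 was not tested.

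The 4 genes that restore chromatin behind the fork all fell, beside 17.1% of all genes tested. With pan-leukocyte scaling 3 of the 4 fell, beside 4.74% of all genes. Dnmt1, which copies DNA methylation, measured 135, 201 and 153 CPM in Cre– controls and 105, 100 and 104 CPM in PTEC DN RAR mice (log2 fold change -0.66 ± 0.14, adjusted p = 0.00652 by edgeR). Uhrf1, which directs it to new strands, had 40.1, 74.9 and 63.3 CPM against 41.8, 32.6 and 31.2 CPM, again with control 1 below PTEC DN RAR 1 (adjusted p = 0.0223 by edgeR). Chaf1b, a subunit of the factor that places histones on new DNA, fell from 13.7, 21.0 and 17.7 CPM to 10.1, 8.84 and 10.2 CPM (log2 fold change -0.85). Chaf1a, the other subunit named here, had -0.93, and its exons overlap Ubxn6 as stated.

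**Figure D3:**
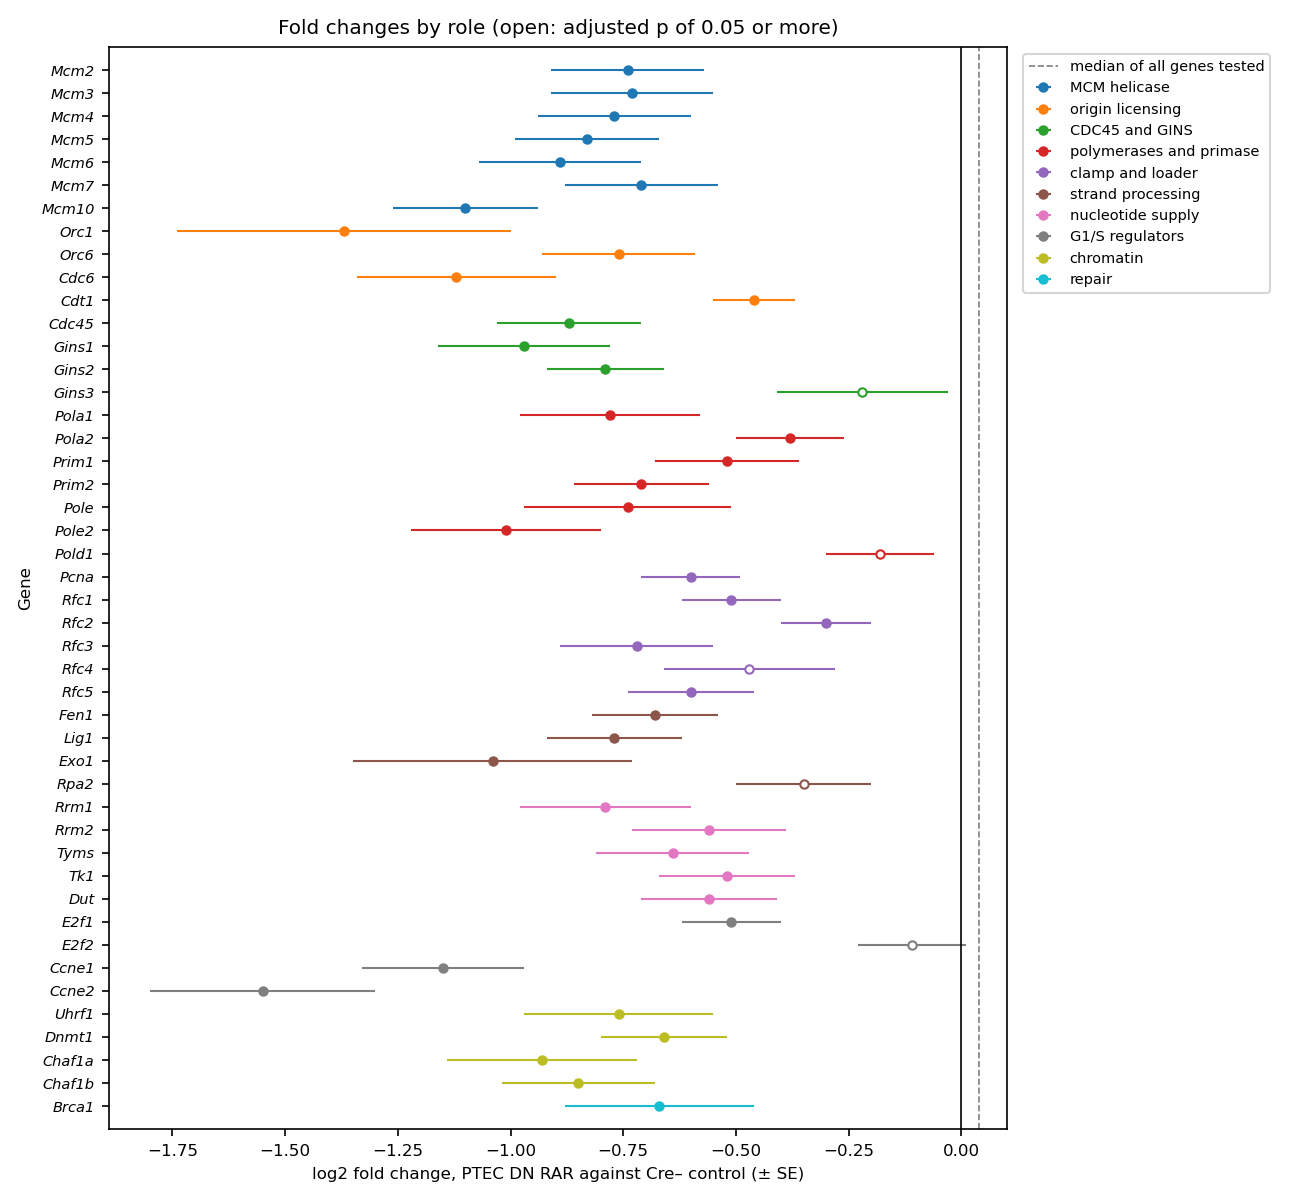
Log2 fold change of each gene, PTEC DN RAR against Cre– control, with its standard error from edgeR's quasi-likelihood test and coloured by role. All 46 points lie left of 0, the 5 open points did not pass, and the median of all genes tested (dashed) is 0.04.

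The promoters of these genes were read for the motif of E2F factors, which is printed in capitals in the examples. The genes were chosen by name, and most are transcribed under E2F factors, so the share with a match is not a result of the counts. The windows span 250 bases before to 50 after a transcription start, 5′ to 3′ on the gene's strand, from RefSeq on GRCm38.p6. The letters TTCCCGC were searched on both strands, as were the variants TTGGCGC and then TTCGCGC and lastly TTGCCGC, and matches may overlap. Windows were held for 38 of the 46 members, of which 26 (68.4%) had a match, compared with 18.4% of 11060 tested genes with a window and 10.9% of all 27025 genes. Member windows had a median GC content of 58.0%, and all windows 52.7%. The CCAAT box, a second motif of cell cycle promoters, was in the windows of 60.5% of members and 42.2% of tested genes. Mcm6 on chromosome 1 has 5 matches, and in 2 of its runs of capitals a pair of matches on opposite strands overlaps. Rfc3 has a pair of matches beside its start, and Orc1 has 1. Rpa2 has a match and did not pass the test, and Mcm10 has none and was among the deepest falls. The Mcm10 window ends on the letters TTGGCG, so a match that runs across its edge would be missed. No window was held for Mcm4, Gins1, Gins2, Prim2, Pole, Rfc2, Exo1 and Ccne2, which were not searched.
Mcm6 (chr1:128359656-128359955, minus strand): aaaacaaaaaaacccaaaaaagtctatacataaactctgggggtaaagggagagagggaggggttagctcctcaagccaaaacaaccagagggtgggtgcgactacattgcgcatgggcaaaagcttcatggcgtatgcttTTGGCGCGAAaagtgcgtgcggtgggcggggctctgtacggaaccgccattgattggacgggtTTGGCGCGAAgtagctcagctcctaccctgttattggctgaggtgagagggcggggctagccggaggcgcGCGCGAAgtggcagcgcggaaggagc
Rfc3 (chr5:151651159-151651458, minus strand): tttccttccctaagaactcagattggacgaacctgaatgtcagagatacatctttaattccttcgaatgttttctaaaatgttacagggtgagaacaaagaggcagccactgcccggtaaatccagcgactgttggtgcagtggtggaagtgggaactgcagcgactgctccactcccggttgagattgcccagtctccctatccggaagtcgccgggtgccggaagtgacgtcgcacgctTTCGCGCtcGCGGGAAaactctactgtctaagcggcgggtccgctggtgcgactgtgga
Orc1 (chr4:108579204-108579503, plus strand): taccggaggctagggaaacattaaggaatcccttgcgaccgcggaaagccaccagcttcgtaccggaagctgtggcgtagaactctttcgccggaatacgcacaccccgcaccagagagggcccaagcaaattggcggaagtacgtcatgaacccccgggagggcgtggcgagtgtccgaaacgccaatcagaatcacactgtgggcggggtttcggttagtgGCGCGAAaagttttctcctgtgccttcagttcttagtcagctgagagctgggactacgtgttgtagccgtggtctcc
Rpa2 (chr4:132768110-132768409, plus strand): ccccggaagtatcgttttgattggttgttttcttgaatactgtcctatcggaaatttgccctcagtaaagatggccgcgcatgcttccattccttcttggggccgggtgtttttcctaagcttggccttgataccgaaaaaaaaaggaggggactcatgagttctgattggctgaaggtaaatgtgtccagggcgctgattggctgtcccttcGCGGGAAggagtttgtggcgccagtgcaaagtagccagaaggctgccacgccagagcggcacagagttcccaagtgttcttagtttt
Mcm10 (chr2:5012742-5013041, minus strand): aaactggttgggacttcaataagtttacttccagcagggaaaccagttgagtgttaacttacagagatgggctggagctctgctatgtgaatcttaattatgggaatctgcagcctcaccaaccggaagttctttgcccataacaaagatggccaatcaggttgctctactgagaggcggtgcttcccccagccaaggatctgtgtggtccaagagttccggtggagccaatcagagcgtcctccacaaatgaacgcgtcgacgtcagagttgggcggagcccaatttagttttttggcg

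Genes with and without a match fell. Of the 26 members with a match 21 fell, with a median log2 fold change of -0.72 and a range from -1.37 to -0.11, and of the 12 without one all 12 fell, with a median of -0.62 and a range from -1.15 to -0.38. All 5 members that did not pass (Gins3, Pold1, Rfc4, Rpa2 and E2f2) have a match. A match is a description of letters in the window and does not show that a factor binds there. The windows of E2f1 and Dut, counted without a match, lie inside the annotated gene, so matches at its annotated start would be missed.

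Among 48 other genes of the same machinery, 33 fell and 0 rose by edgeR (0 rose at an unadjusted p under 0.05 as well), with a median log2 fold change of -0.55. With pan-leukocyte scaling 13 of the 48 fell and 0 rose, beside 4.74% and 31.9% of all genes. The 5 with the largest falls and a mean of at least 1 CPM were Hells, Wdhd1, Nasp, Dscc1 and Atad5. Hells, a chromatin remodeler, fell from 13.6, 27.7 and 26.0 CPM to 8.34, 8.48 and 8.26 CPM (log2 fold change -1.42 ± 0.24, adjusted p = 0.00272 by edgeR). Nasp, a histone chaperone, went from 43.6, 57.2 and 58.2 CPM to 24.5, 23.9 and 26.5 CPM (log2 fold change -1.09, adjusted p = 0.000486 by edgeR). Neither overlapped, and both had PTEC DN RAR values within a narrow range. Wdhd1, Dscc1 and Atad5, which act at the moving fork, had log2 fold changes of -1.18, -1.07 and -0.98. The log2 fold change was above 0 in 4 genes, named here after their values were seen: Rrm2b, the reductase subunit that p53 induces outside S phase, at 0.23 (adjusted p = 0.182), Pold4 at 0.12, Rnaseh2c at 0.05 and Tonsl at 0.04, none of which passed in edgeR.

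Mitotic genes were lower as well. Of 26, 23 fell and 0 rose by edgeR, with a median log2 fold change of -0.86, and 17 fell with pan-leukocyte scaling, which left 4.74% of all genes lower and 31.9% higher. Ccnb2 (-0.56), Cdc20 (-0.41) and Foxm1 (-0.43), named after their values were seen, did not pass. Mki67, the Ki67 gene, which marks cells in any active phase, had 141, 236 and 230 CPM against 98.7, 85.8 and 107 CPM (log2 fold change -1.06 ± 0.19, adjusted p = 0.00318 by edgeR). Top2a, a topoisomerase of S phase and mitosis, had 173, 317 and 280 CPM against 157, 114 and 135 CPM (log2 fold change -0.92, adjusted p = 0.00961 by edgeR). In both genes control 1 was nearer to the PTEC DN RAR mice than the other controls were. The kinetochore genes Cenpe, Cenpf and Bub1 and the mitotic kinase and cyclin Cdk1 and Ccnb1 had log2 fold changes from -1.44 to -1.06.

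Among genes that govern the decision to enter the cycle a smaller share fell than among the members. Of 25 regulators, 11 fell (44%) and 2 rose (8%) by edgeR, beside 17.1% and 23.6% of all genes tested. Their median log2 fold change was -0.29. With pan-leukocyte scaling, under which 31.9% of all genes rose and 4.74% fell, 2 fell and 4 rose, with a median of -0.08. The 5 largest falls among those of at least 1 CPM, Mybl2 (-0.77), E2f8 (-0.72), E2f7 (-0.69), Lin54 (-0.68) and Rbl1 (-0.62), include genes that are themselves induced with S phase. With pan-leukocyte scaling E2f8 and Lin54 still passed, and Mybl2, E2f7 and Rbl1 did not (adjusted p = 0.0705, 0.0808 and 0.0755 by edgeR). The 2 that rose, named after their values were seen, were Tfdp2, a partner of E2F factors, at a log2 fold change of 0.30 (adjusted p = 0.0256), and Mycn, at 1.46 (adjusted p = 0.0198), which stayed under 1 CPM in every library. The D cyclins, which act before cyclin E, did not pass, with log2 fold changes of 0.42 for Ccnd1, -0.50 for Ccnd2 and 0.10 for Ccnd3 (adjusted p = 0.0936, 0.0842 and 0.494 by edgeR).

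Of 7 inhibitors of cyclin-dependent kinases 2 rose and 2 fell by edgeR (28.6% each), near the shares of all genes tested (23.6% and 17.1%). Cdkn1a, the p21 gene, fell from 174, 154 and 171 CPM to 72.5, 66.9 and 95.7 CPM (log2 fold change -1.08 ± 0.14, adjusted p = 0.000728 by edgeR), with a wide gap between genotypes. Cdkn2d, the p19INK4d gene, had a log2 fold change of -0.41 (edgeR, adjusted p = 0.0487), and did not pass with library size scaling (0.0513), with at least 10 counts in every library (0.0583) or with pan-leukocyte scaling (-0.20, adjusted p = 0.37). Cdkn1c, the p57 gene, rose from 4.05, 4.80 and 3.71 CPM to 8.94, 10.9 and 10.4 CPM (log2 fold change 1.27, adjusted p = 0.000734 by edgeR), and it is also a podocyte marker. Cdkn2a, named after its values were seen, rose by 1.10 on the log2 scale from under 0.5 CPM in each control (adjusted p = 0.0402 by edgeR). Cdkn1b, the p27 gene, measured 60.8, 60.9 and 67.5 CPM against 66.2, 64.3 and 58.0 CPM (adjusted p = 0.97 by edgeR). Cdkn2c (-0.21) and Cdkn2b (0.83) did not pass. With pan-leukocyte scaling 3 of the 7 inhibitors were higher and 1 lower, beside 31.9% and 4.74% of all genes.

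**Figure D4:**
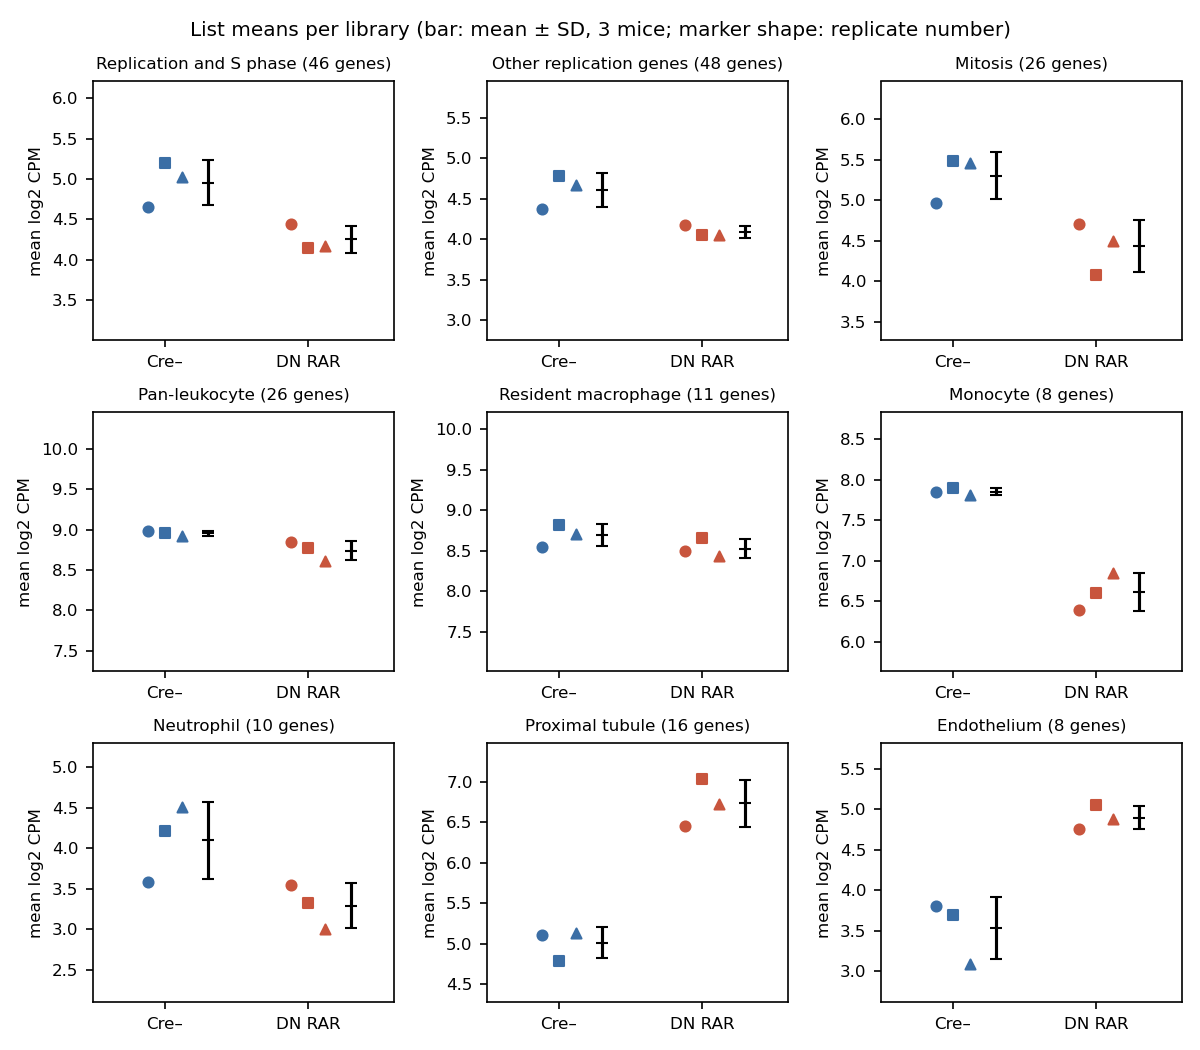
Mean log2 CPM over the genes of each list in each library, with the mean ± SD of 3 mice beside the points and the same span on every vertical axis. Replication, other replication and mitosis genes were lower in every PTEC DN RAR library, monocyte markers too, and proximal tubule and endothelial markers were higher.

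Markers of several other cell types moved with genotype, in a test where 23.6% of all genes rose and 17.1% fell (edgeR). The shares called among injured tubule and resident macrophage markers were close to these or smaller. Every one of 16 proximal tubule markers, 6 thick ascending limb markers (summed level 1040 to 1470 CPM in Cre– controls and 3620 to 7050 CPM in PTEC DN RAR mice), 5 distal convoluted tubule markers (925 to 1190 and 1870 to 2240 CPM) and 8 endothelial markers (80.6 to 121 and 239 to 291 CPM) rose by edgeR. Of 8 collecting duct markers 3 rose (109 to 295 and 231 to 518 CPM), of 6 podocyte markers 5 (54.8 to 87.0 and 155 to 188 CPM), and of 8 stromal markers 5 (88.9 to 103 and 114 to 204 CPM). In a list of 10 genes of injured tubules 2 rose and 2 fell (2480 to 3540 and 1420 to 2390 CPM). Of 8 monocyte markers 7 fell, as did 5 of 10 neutrophil markers (471 to 849 and 299 to 426 CPM) and 9 of 26 pan-leukocyte genes (16900 to 17900 and 13700 to 16100 CPM). Resident macrophage markers gave 1 higher and 2 lower of 11 (13700 to 15000 and 12900 to 16300 CPM), and 4 higher and 0 lower with pan-leukocyte scaling, which raised 31.9% of all genes, and dendritic cell markers gave 3 higher and 1 lower of 8 (102 to 150 and 121 to 157 CPM). Lymphocyte lists had 4 of 6 genes tested each. T cell markers gave 1 higher and 1 lower (5.87 to 7.29 and 3.73 to 6.16 CPM) and NK cell markers 0 in either direction (2.63 to 8.29 and 1.98 to 5.47 CPM). B cell markers gave 1 higher (23.5 to 30.9 and 33.1 to 49.8 CPM, without overlap), and 4 higher with pan-leukocyte scaling, which raised 31.9% of all genes. No marker was at 0 in all 6 libraries. Mitochondrial transcripts took 5.03% to 8.77% of counts in Cre– controls and 10.38% to 12.08% in PTEC DN RAR mice. The part of these shifts in the lower replication genes was not tested either.

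The number of genes that passed changed with the scaling. Scaling on the 26 pan-leukocyte genes instead moved the overall median from 0.04 to 0.25 (log2), and 4932 genes rose and 732 fell in place of 3640 and 2636. The members' median moved from -0.73 to -0.52. Of the 46, 44 stayed below 0 and 25 fell past the threshold by edgeR, where 4.74% of all genes fell and 31.9% rose, and all 25 are among the 41. These were all 7 helicase genes, Orc1, Orc6, Cdc6, Cdc45, Gins1, Gins2, Prim2, Pole2, Pcna, Rfc3, Fen1, Lig1, Rrm1, Ccne1, Ccne2, Dnmt1, Chaf1a and Chaf1b. Pold1 and E2f2, neither of which had passed, turned to log2 fold changes of 0.03 and 0.10. When the mean of the proximal tubule markers entered the model as a covariate, 0 genes of all 15440 passed by edgeR in either direction (292 higher and 170 lower at an unadjusted p under 0.05) and 36 members turned above 0. None of the 46 had an unadjusted p under 0.05 in that model. The covariate separated the genotypes without overlap, so that tubule markers and genotype cannot be told apart.

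**Figure D5:**
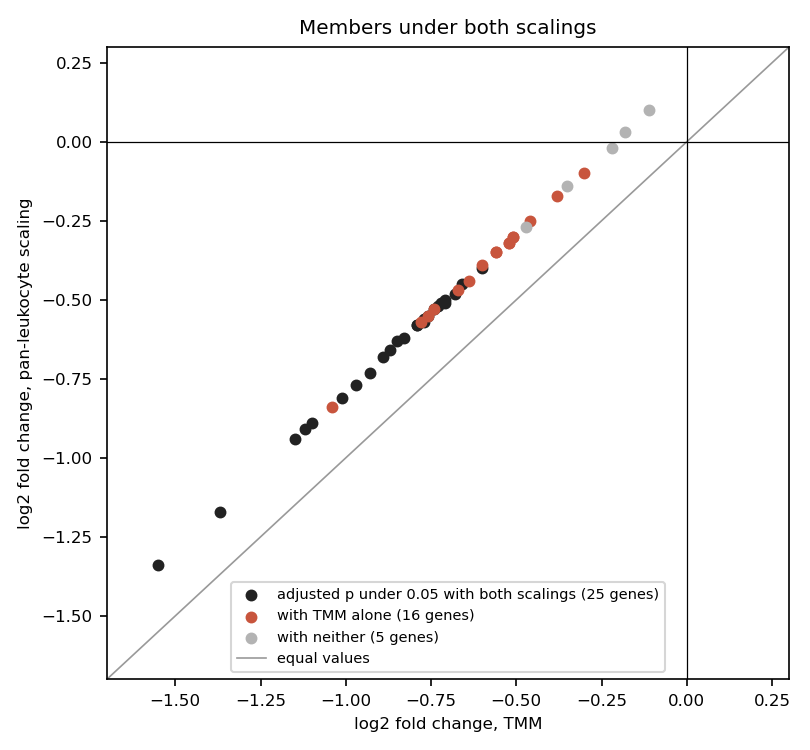
Log2 fold change of each member with TMM (horizontal) and with scaling on pan-leukocyte genes (vertical), coloured by which of the tests passed. All points lie above the line of equal values, 25 genes passed with both scalings, 16 with TMM alone, and Pold1 and E2f2 lie above 0 on the vertical axis.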

How the data were processed

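The authors deposited raw read counts per Ensembl gene for 6 libraries, without normalization. The submitters' processing notes name STAR 2.5.0a, HTSeq 0.6.1, edgeR, limma and GRCm38, without their roles. Per the file, between 42.93% and 47.75% of alignments per library were not unique and were left out of gene counts, 2.39% to 3.97% hit no gene and 0.46% to 0.53% were ambiguous, which lowers the counts of genes that have close copies. Of 46612 gene lines 9 carried an Ensembl ID a second time with the same counts and were merged. Coordinates and exon lengths are from GENCODE M21 on GRCm38.

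The members and lists were chosen with earlier results of these data known. Genes passing filterByExpr were scaled by TMM and tested with glmQLFit and glmQLFTest of edgeR 4.0.16 under R 4.3.3. P values of the 15440 genes were adjusted by the method of Benjamini and Hochberg, with a threshold of 0.05. The standard error is the log2 fold change divided by the square root of F. Mean log2 CPM used a prior count of 2. No list was tested as a set. The text names all members, of each further list the 5 called genes of at least 1 CPM with the largest change, and Mki67, Top2a and Rara, 67 genes in all. Itgam was added as a check of the cell selection. The D cyclins, Cdkn1b, Cdkn2b, Cdkn2c and the genes so marked in the text lie outside this rule and were chosen after their values were seen. The alternatives for single genes cover the 67 alone. The mice were separate animals, and replicate numbers do not pair them. Alternatives used DESeq2 1.42.0, limma 3.58.1 (voom), other scalings, filters and covariates, and leaving out each library, for which the tested genes were held fixed. The tests were tried on simulated counts.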

Additional observations from a re-analysis of the deposited data

How the results depend on the processing

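The fall of the replication genes kept its direction under each filter, with the replicate block, under DESeq2, limma voom, RLE factors and library size, and with each mouse left out, where none of the 67 genes of the naming rule turned sign. In 871 such comparisons of single genes 805 stayed on the same side of the threshold, 55 lost their call and 11 gained one. The number of members lower was between 30 and 43, against 41. Leaving out each mouse in turn gave between 2474 and 3698 genes higher and between 1841 and 2808 lower, 0 members higher, 30 to 43 members lower (43 without control 1, 31 without control 2, 31 without control 3, 42 without PTEC DN RAR 1, 30 without PTEC DN RAR 2 and 32 without PTEC DN RAR 3), and a mean difference from -0.86 to -0.62. Of the 41 members, 30 were called whichever mouse was left out, and 11 (Orc1, Pola2, Prim1, Pole, Rfc2, Exo1, Rrm2, Tyms, Tk1, Uhrf1 and Brca1) were not. Of the genes outside the members, Dscc1 lost its call without control 2, E2f7 without control 3, and Cdkn2d without control 1, control 3 or PTEC DN RAR 2. The mean difference was -0.49 with pan-leukocyte scaling and -0.54 with the median over members.

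Pan-leukocyte scaling left 25 members and 732 genes lower, and Pold1 and E2f2 turned to 0.03 and 0.10. With the proximal tubule covariate 0 genes were higher, 0 lower and 0 members lower, and the log2 fold changes that turned sign were Mcm2 0.34, Mcm3 0.37, Mcm4 0.28, Mcm5 0.55, Mcm6 0.18, Mcm7 0.70, Orc1 1.08, Orc6 0.57, Cdc6 0.46, Cdc45 0.21, Gins1 0.35, Gins3 0.46, Pola2 0.22, Prim1 0.25, Prim2 0.12, Pole 1.35, Pold1 0.71, Pcna 0.17, Rfc2 0.36, Rfc3 0.96, Rfc4 0.63, Rfc5 0.73, Fen1 0.27, Exo1 1.59, Rpa2 0.21, Rrm1 0.90, Rrm2 1.02, Tyms 0.39, Tk1 0.82, Dut 0.56, E2f2 0.84, Uhrf1 0.78, Dnmt1 0.28, Chaf1a 0.85, Chaf1b 0.23, Brca1 0.31, Cdkn2d 0.38, E2f8 0.45, Cdk1 0.71, Ccnb1 0.20, Wdhd1 0.20, Dscc1 0.67, Top2a 0.76. That covariate follows genotype and cannot be told apart from it.

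The replicate numbers join different animals. Same-numbered libraries did not deviate together (correlations of deviations from genotype means of -0.01, 0.21 and 0.03, with control 1 closest to PTEC DN RAR 3 at 0.15). With the replicate block 34 members were lower, beside 16.9% of all genes lower and 23.4% higher. Adjusted p values by edgeR were from 0.0517 to 0.0751 for the 7 members that no longer passed (Orc1, Pola2, Pole, Exo1, Rrm2, Uhrf1 and Brca1). Depth was lowest for Orc1, with 37 reads in its lowest library.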
